A study of Mus musculus with 15 samples.

Results

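The genes described are 6 genes known for differing between zebrin-positive and zebrin-negative Purkinje cells (PCs): Aldoc, Slc1a6, Plcb3, Hspb1, Plcb4 and Ebf2. They were found by symbol, through the GENCODE M21 names of the Ensembl identifiers, and are 6 of 38561 genes listed in each of 15 count files, of which 36723 carry a name in that release. RNA of laser-captured mouse PCs, labelled strain C56/BL6 and given as male in the study's methods, was sequenced at 5 ages, from the day of birth (P0) over P4, P8 and P14 to P21, each age with 3 biological replicates, no treatment and no altered gene. From P4 on, 1000 single PC somata per mouse were cut at random from parasagittal sections, whereas at P0 single cells were hard to isolate and clusters of PCs were taken. P0 therefore differs from the later time points in the way of capture as well as in age, and both cannot be told apart.

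PCs look alike but fall into parasagittal stripes that differ in molecular make-up. The stripes are named for zebrin II, the glycolytic enzyme aldolase C encoded by Aldoc, and zebrin-positive PCs are also known for phospholipase C beta 3 (Plcb3) and for more of the glutamate transporter EAAT4 (Slc1a6), while zebrin-negative PCs carry phospholipase C beta 4 (Plcb4). Both phospholipases couple metabotropic glutamate receptors to release of calcium from internal stores, the small heat shock protein Hsp25 (Hspb1) marks a smaller set of stripes, and the transcription factor Ebf2 is known from zebrin-negative PCs. The captured somata were pooled, so every library mixes both kinds of PC, and fewer cells of a kind and less RNA per cell cannot be told apart.

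Each library held 3409371 to 7814951 counts on genes, and 13761 to 15564 genes had at least 1 count. Values are CPM, the counts of a gene per 1000000 counts of its library after TMM scaling, or RPKM (CPM per kilobase of exon) where levels of different genes are compared. By the edgeR slope test described below, all 6 PC markers examined rose with day, beside 12.1% of all tested genes. These were Calb1, Itpr1, Pcp2, Pcp4, Car8 and Ppp1r17, and their summed level went from 5326 CPM at P0 to 42889 CPM at P21. All 10 Bergmann glia and astrocyte markers were detected at every time point, with a sum between 4412 and 9537 CPM. Granule neuron markers summed to between 278 and 620 CPM, with Atoh1 at 0 in all libraries. Of the others, Gabra6 went from 0.064 CPM at P0 to 103 CPM at P14 and 63.4 CPM at P21. Neurod1 was at 210 CPM at P0 and 199 CPM at P21, and Cbln1 at 67.9 and 58.4 CPM. No library was left out, but Plcb3 counts differed widely between replicates at P0 and at P4, as given with that gene.

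To show the sequences next to the genes they belong to, the bases before the RefSeq start site (GRCm38.p6) are printed for 4 members, leaving out Plcb4, whose window begins inside an annotated exon. All 4 are associated with zebrin-positive PCs or a subset of them. The window was 250 bases, read 5′ to 3′ on the gene's strand. Aldoc is shown only as far as its first exon in GENCODE, chr11:78322823-78322967 on the plus strand. Slc1a6 is chr10:78780246-78780495 (plus), Plcb3 is chr19:6969815-6970064 (minus) and Hspb1 is chr5:135887669-135887918 (plus). The Plcb3 window lies inside the span of the gene in GENCODE, bases 6952325 to 6976470, and not upstream of it. Capitals mark matches to the motifs searched on both strands, which were the GC box GGGCGG, the hexamer AGGTCA and the E-box CAGCTG.
Aldoc: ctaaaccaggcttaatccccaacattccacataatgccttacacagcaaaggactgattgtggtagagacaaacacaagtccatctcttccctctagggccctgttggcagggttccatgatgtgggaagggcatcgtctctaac
Slc1a6: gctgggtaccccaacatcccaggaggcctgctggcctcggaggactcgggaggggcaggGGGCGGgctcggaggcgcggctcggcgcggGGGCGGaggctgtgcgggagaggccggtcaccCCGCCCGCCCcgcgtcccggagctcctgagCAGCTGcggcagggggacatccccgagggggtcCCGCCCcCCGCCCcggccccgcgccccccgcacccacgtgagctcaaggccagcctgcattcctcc
Plcb3: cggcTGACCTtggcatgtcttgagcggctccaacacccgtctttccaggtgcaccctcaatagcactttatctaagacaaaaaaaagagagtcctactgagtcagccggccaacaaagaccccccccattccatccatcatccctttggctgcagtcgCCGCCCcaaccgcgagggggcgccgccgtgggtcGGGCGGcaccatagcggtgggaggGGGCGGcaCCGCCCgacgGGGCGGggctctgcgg
Hspb1: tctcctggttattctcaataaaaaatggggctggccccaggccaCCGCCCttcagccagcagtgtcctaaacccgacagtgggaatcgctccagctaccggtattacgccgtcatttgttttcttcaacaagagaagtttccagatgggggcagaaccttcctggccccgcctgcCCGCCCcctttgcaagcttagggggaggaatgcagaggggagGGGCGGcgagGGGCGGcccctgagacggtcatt

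The Aldoc stretch printed held no match, but the rest of its 250-base window, which lies in that first exon and is not printed, held 1 GC box 17 bases before the RefSeq start. The Slc1a6 window was 78.8% G and C with 6 GC boxes, some of which overlap, and 1 CAGCTG. The Plcb3 window held 5 GC boxes and 1 AGGTCA, and the Hspb1 window held 4 GC boxes. Of 27025 first start sites with a RefSeq window, 32.9% held a GC box, 13.8% an AGGTCA and 12.8% a CAGCTG. The median G and C content was 52%. Of the 2 windows of Plcb4, not printed, the first held 7 GC boxes, and Ebf2 had no entry. Another Aldoc window, chr11:78323948-78324197, lies inside the gene, is not printed and held no match to the motifs.

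To ask which members followed age, a slope with postnatal day was fitted for each of 14293 tested genes with edgeR's quasi-likelihood test. Aldoc, Plcb3, Slc1a6 and Plcb4 rose with day, so that 4 of 6 members rose and 0 fell, beside 12.1% of all tested genes that rose and 14.1% that fell. The median slope of the members was 0.14 log2 units per day, beside -0.0077 over all tested genes. When any change between the 5 time points was tested, 5 of 6 members passed, beside 19.3% of all genes. The exception was Hspb1, with an adjusted p of 0.120 by edgeR, 0.0143 by DESeq2 and 0.0351 by limma-voom.

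**Figure D1:**
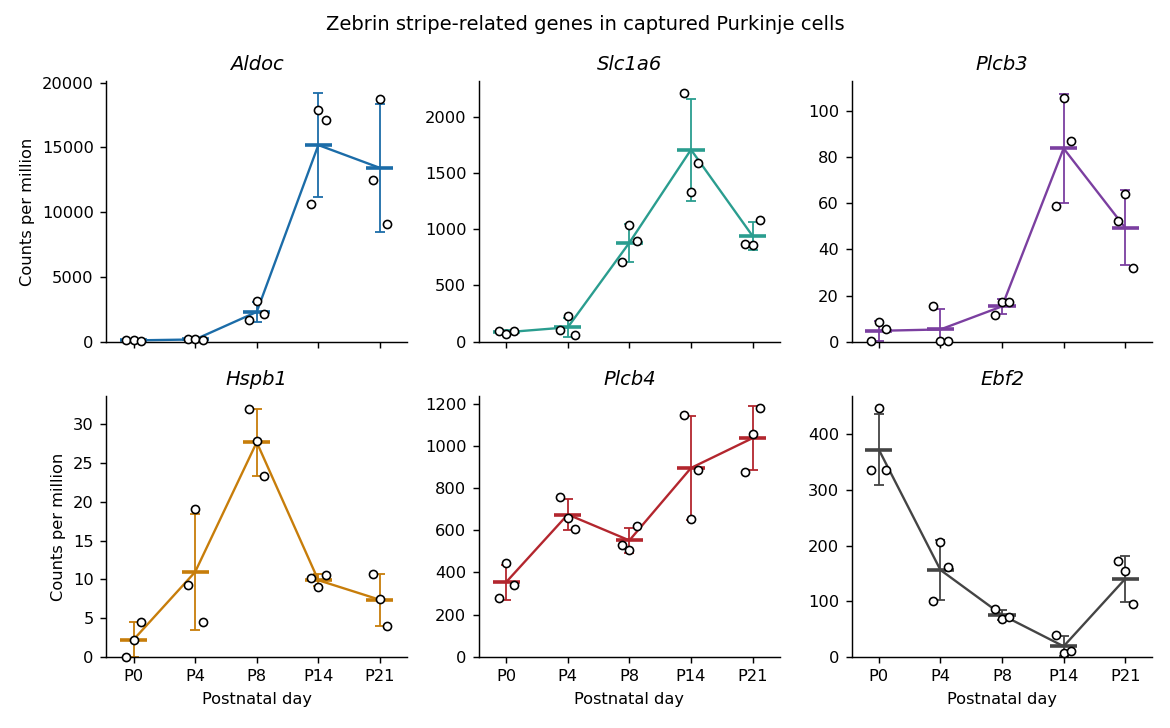
CPM (linear axis, from 0) of each gene at each time point. Open circles are the 3 samples, short bars and error bars the mean and SD, and lines join the means. Aldoc, Slc1a6 and Plcb3 have their highest mean at P14, Hspb1 at P8, Plcb4 at P21 and Ebf2 at P0.

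Aldoc (ENSMUSG00000017390; GRCm38 chromosome 11, bases 78322968 to 78327781, plus strand) had the largest slope of the 6. It was at 138, 111 and 58.0 CPM in the P0 samples and at 198, 203 and 125 CPM at P4. At P8 it stood at 1659, 3144 and 2104 CPM, at P14 at 10602, 17856 and 17093 CPM, and at P21 at 12466, 18738 and 9051 CPM. The samples of P4 and P8, and of P8 and P14, did not overlap, as was so upward for 9.28% and 12.9% of all tested genes, while those of P0 and P4 and those of P14 and P21 did.

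The mean Aldoc level was 102 ± 40.5 CPM at P0, 2302 ± 762 CPM at P8 and 15184 ± 3986 CPM at P14 (SD, n = 3 each). By edgeR it rose 13.1-fold from P4 to P8 (log2 fold change 3.71, SE 0.37, adjusted p = 7.71e-05) and a further 6.59-fold from P8 to P14 (2.72, SE 0.35, adjusted p = 6.93e-04). Neither P0 to P4 (0.78, adjusted p = 0.282) nor P14 to P21 (-0.18, adjusted p = 1) was called, and the last estimate changed sign to 0.036 without P21 replicate 3. Over the whole course Aldoc rose by 0.42 log2 units per day (SE 0.054, edgeR adjusted p = 1.28e-05). Its rank by RPKM among protein-coding genes with a count was 1417 at P0, 52 at P8, 4 at P14 and 7 at P21.

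Aldoc overtook its paralog Aldoa, the aldolase of most tissues. Per length, Aldoc was 8.45% ± 3.40 of the summed aldolase RPKM at P0, 54.0% ± 4.86 at P8 and 82.8% ± 4.84 at P14 (SD, n = 3). Aldoa rose too, from 986 CPM at P0 to 2762 CPM at P21 (slope 0.071, SE 0.0092, edgeR adjusted p = 1.28e-05). Within each library, the log2 ratio of Aldoc to Aldoa counts lay between -4.11 and -2.75 in the 6 samples of P0 and P4 and between 1.42 and 2.82 in the 6 of P14 and P21. The difference of 5.59 had the smallest p that an exact two-sided permutation test over these samples can give (p = 0.00216, adjusted p = 0.00325 over the 6 ratios tested).

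Aldoc is also a gene of astrocytes and Bergmann glia, whose markers were present in these libraries. The 10 glial markers summed to 4805 CPM at P0, 7483 CPM a few days later at P4, a peak of 9537 CPM at P8, 7005 CPM at P14 and, lowest, 4412 CPM at P21. By the slope test, 5 of the 10 rose with day and 2 fell, beside 12.1% and 14.1% of all tested genes. All 10 were called over any change between time points, beside 19.3% of all tested genes. Most of the fall of the sum came from Fabp7, a lipid-binding protein of immature glia, at 4653 CPM at P8 and 185 CPM at P21. The other 9 summed to 2126 CPM at P0, 2977 CPM at P4, 4884 CPM at P8, 5899 CPM at P14 and 4226 CPM at P21, and 5 of the 10, among them Slc1a2 (330 to 490 CPM), had a higher mean at P21 than at P8. Without Fabp7, left out after the data were seen, the glial sum had its highest mean at P14, where Slc1a3 alone was at 3518 CPM. The log2 ratio of Aldoc to Slc1a3, the glial glutamate transporter GLAST, was -4.86 to -2.98 in the P0 and P4 samples and 1.56 to 3.22 in those of P14 and P21. These did not overlap, and the difference was 5.88 (exact two-sided permutation test, adjusted p = 0.00325). How much of the Aldoc signal came from glia was not tested.

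Slc1a6 (ENSMUSG00000005357; chromosome 10, bases 78780496 to 78814765, plus strand) encodes EAAT4, the glutamate transporter of PC dendrites and spines. It was at 94.7, 65.7 and 92.0 CPM at P0 and at 102, 224 and 58.1 CPM at P4. It reached 704, 1038 and 897 CPM at P8 and 2208, 1326 and 1585 CPM at P14, and stood at 873, 863 and 1083 CPM at P21. Every P8 sample was above every P4 sample, every P14 sample above every P8 sample, and every P21 sample below every P14 sample. Over all tested genes, 9.28% had such an upward gap from P4 to P8 and 12.9% from P8 to P14. A downward gap from P14 to P21 was found for 9.04%.

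Of these steps, P4 to P8 passed the test, with a 6.85-fold rise (log2 fold change 2.78, SE 0.37, edgeR adjusted p = 8.17e-04). From P8 to P14 the estimate was 0.95 (SE 0.35, adjusted p = 0.202), called without P4 replicate 2 (adjusted p = 0.0452), and from P14 to P21 it was -0.86 (SE 0.35, adjusted p = 0.610). P21 was 11.1-fold above P0 (adjusted p = 5.85e-06). The slope with day was 0.21 (SE 0.046, edgeR adjusted p = 0.00231) and was not called without the P0 time point (0.14, adjusted p = 0.104). In order of mean level, P14 led with 1706 ± 453 CPM, followed by P21 with 939 ± 124 and P8 with 880 ± 168 (SD, n = 3), of which P21 and P8 overlapped.

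Among the glutamate transporters compared per length, Slc1a6 made up 17.6% ± 2.75 of the RPKM at P0, 19.9% ± 12.5 at P4, 56.7% ± 7.11 at P8 and 63.2% ± 7.60 at P14 (SD, n = 3). The glial Slc1a3 went from 75.6% at P0 to 33.9% at P14. Both Slc1a3 and Slc1a2 rose in CPM by the slope test (adjusted p = 0.0144 and 2.42e-04, edgeR). Slc1a7 had no count in any library.

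**Figure D2:**
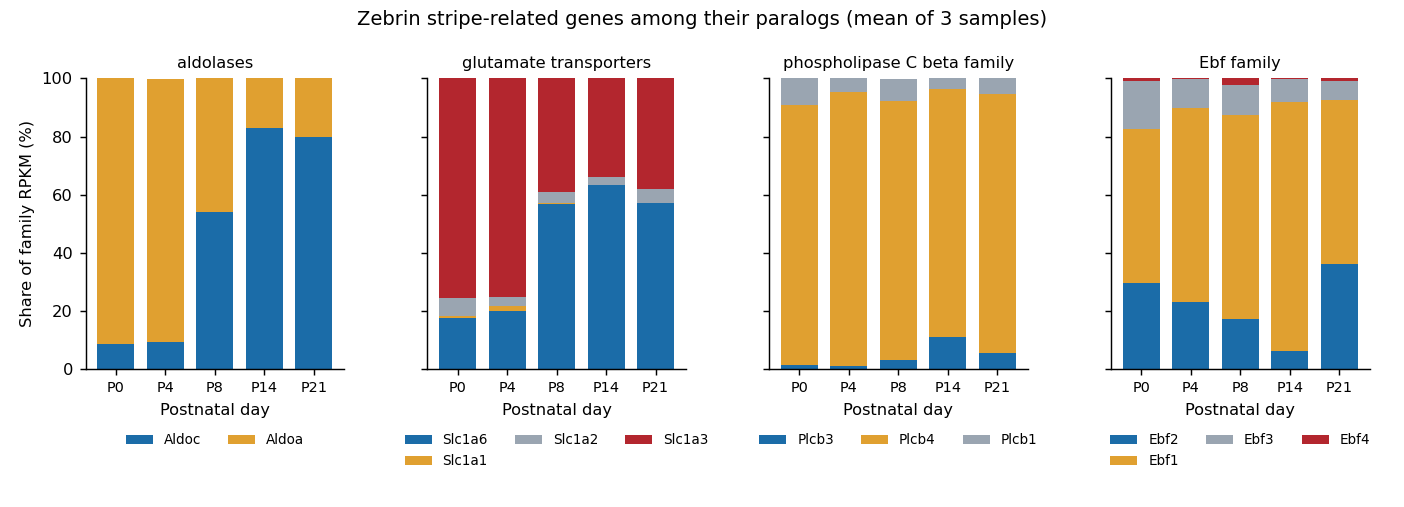
Share of each paralog in the summed RPKM of its family (paralogs under 1% at every time point are not drawn; percent, mean of 3 samples) at each time point. Aldoc goes from 8.45% to 82.8% of aldolase RPKM between P0 and P14, Slc1a6 passes Slc1a3 at P8, Plcb4 stays above 85%, and Ebf2 is smallest at P14 with 6.14%.

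Aldoc and Slc1a6 both rose from P4 to P8, but Aldoc went on further. The log2 ratio of Aldoc to Slc1a6 counts within a library was -0.66 to 1.11 in the P0 and P4 samples, 1.23 to 1.60 at P8, and 2.26 to 4.44 in the P14 and P21 samples. The late samples were higher by 3.04, an 8.22-fold change (exact two-sided permutation test, adjusted p = 0.00325). Slc1a6 against Calb1, a calcium buffer found in all PCs, was -5.37 to -3.23 early and -3.25 to -1.94 late, with 1 late sample within the early range (difference 1.69, exact permutation, adjusted p = 0.00433). With the rank of the ratio over all 15 samples, that relation to day was not called (Spearman's rho 0.513, permutation test, adjusted p = 0.0541).

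Plcb3 (ENSMUSG00000024960; chromosome 19, bases 6952325 to 6976470, minus strand) encodes the phospholipase of zebrin-positive PCs and was low in the first week; 22 of its exon bases overlap Ppp1r14b on the other strand. Its raw counts were 1, 43 and 27 at P0, 64, 1 and 1 at P4, and 58, 90 and 95 at P8. They were 319, 552 and 454 at P14 and 157, 302 and 199 at P21. The first P4 library thus held more Plcb3 than its 2 partners together, and the first P0 library nearly none.

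In CPM the mean was 4.72 ± 4.21 at P0 and 5.32 ± 8.95 at P4, then 15.3 ± 3.16 by P8, 83.8 ± 23.6 by P14 and 49.4 ± 16.2 in the oldest mice, at P21 (SD, n = 3). All P14 samples lay above all P8 samples, with 58.6 to 106 CPM against 11.7 to 17.1 CPM. Over all tested genes, 12.9% had such an upward gap at this step. Plcb3 rose with day (slope 0.22, SE 0.060, edgeR adjusted p = 0.00989), although without the P0 time point the same slope was not called (adjusted p = 0.0573). No single step was called (P8 to P14: 2.45, SE 1.14, adjusted p = 0.367). The fit of any change between time points was at an adjusted p of 0.0390 and lost its call when any one of 10 libraries was left out, most of all P14 replicate 2 (0.102). Without P4 replicate 1 the step from P4 to P8 was 6.48 (adjusted p = 0.0134), against P4 libraries of 1 count each.

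Plcb4 (ENSMUSG00000039943; chromosome 2, bases 135659011 to 136014593, plus strand), the phospholipase of zebrin-negative PCs, was well expressed from birth, and its slope was the smallest of the 4 that were called. It was at 280, 443 and 340 CPM at P0, 757, 661 and 608 CPM at P4, and 529, 509 and 620 CPM at P8. At P14 it was at 1148, 654 and 886 CPM and at P21 at 875, 1058 and 1180 CPM. Every P0 sample was below all later samples, and for the step from P0 to P4 alone 9.12% of all tested genes had such an upward gap. Every P14 sample was above every P8 sample, as was so for 12.9% of all tested genes. P4 and P8, P4 and P14, and P14 and P21 overlapped.

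Plcb4 rose by 0.064 log2 units per day (SE 0.012, edgeR adjusted p = 5.09e-04) and was 2.92-fold higher at P21 than at P0 (adjusted p = 6.79e-05). The step from P0 to P4 was 0.93 (SE 0.21, adjusted p = 0.0351), the only one called. That call held in 5 of 15 fits that left out 1 library, with adjusted p values up to 0.146 without P4 replicate 1. Plcb4 held 85.3% to 94.6% of the RPKM of the phospholipase C beta family at every time point, whereas Plcb1 held 3.57% to 9.32% and Plcb2 was almost absent.

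The balance of the pair moved towards Plcb3. Summed over the 3 libraries and divided by exon length, there were 58.8 Plcb4 counts for each Plcb3 count at P0 and 138 at P4, which came down to 27.9 by P8 and 8.37 by P14 before a value of 17.7 at P21. The P4 value rests on 1 library, since replicate 1 held 64 of the 66 Plcb3 counts; without it the ratio was 3364, over 2 Plcb3 counts, and without replicate 2 it was 79.4. The log2 ratio of counts within a library (0.5 added to each) was 5.58 to 11.7 in the P0 and P4 samples, 3 of which held 1 Plcb3 count, and 2.63 to 5.21 in the P14 and P21 samples. The late samples were lower by 4.42 (exact two-sided permutation test, adjusted p = 0.00325), and the difference was -3.37 with 5 added to each count. Plcb4 also fell against Calb1, by 1.05 (exact permutation, adjusted p = 0.00433), with 1 late sample, P21 replicate 3 at -2.27, inside the early range.

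**Figure D3:**
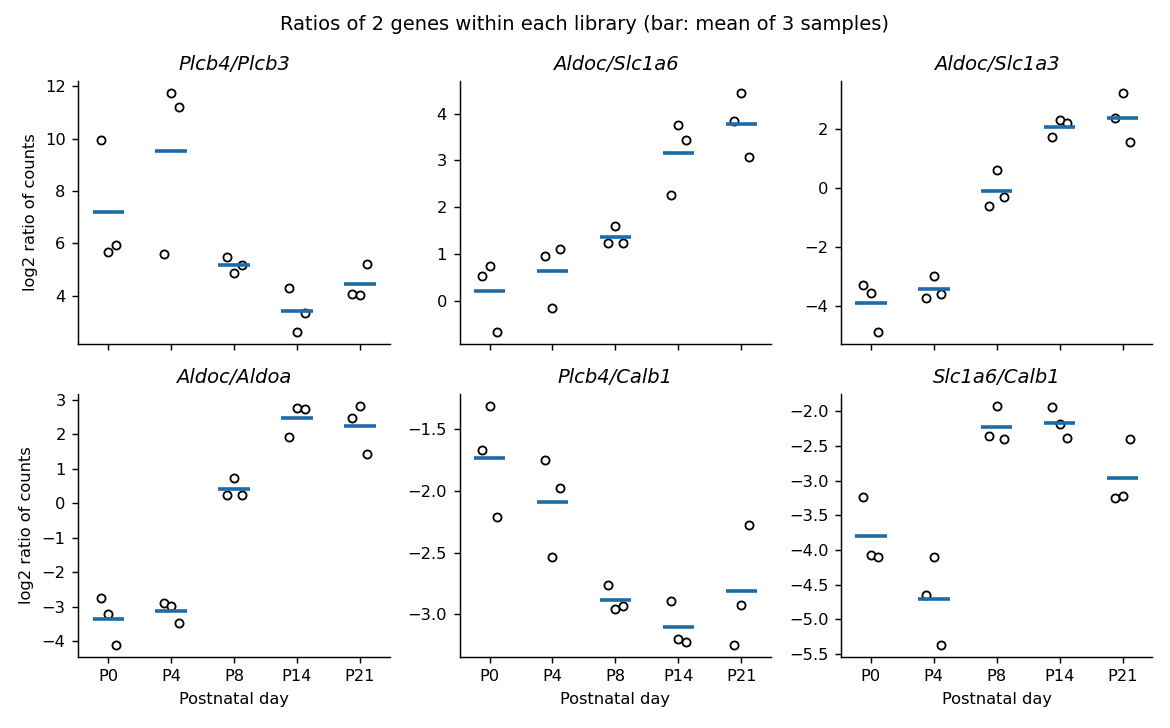
The log2 ratio of the counts of 2 genes within each library, by time point; circles are the 3 samples and bars their mean. Aldoc climbs against Slc1a6, Slc1a3 and Aldoa, Plcb4 goes down against Plcb3 and Calb1, and the Plcb4 to Plcb3 values above 9 come from libraries with 1 Plcb3 count.

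Both phospholipases act upstream of the IP3 receptor. Of the 10 genes listed for that route, Plcb3 and Plcb4 included, 9 rose with day and 1, Gna11, fell, beside 12.1% and 14.1% of all tested genes, where Gna11 encodes a G protein alpha subunit (from 216 CPM at P0 to 120 CPM at P21, edgeR adjusted p = 0.00474). The IP3 receptor gene Itpr1 rose from 177 to 6364 CPM (slope 0.21, adjusted p = 1.74e-05) and its binding partner Car8 from 1327 to 9655 CPM (slope 0.13, adjusted p = 1.17e-06). The slopes of Itpr1 and Car8, like that of Plcb3, were above the 0.064 of Plcb4, but the differences between slopes were not tested.

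Hspb1 (ENSMUSG00000004951; chromosome 5, bases 135887919 to 135889563, plus strand) was scarce, with counts of 0, 11 and 22 at P0, where a count of 0 allows up to 3. It had 38, 148 and 26 counts at P4, 159, 146 and 129 at P8, 55, 47 and 55 at P14, and 32, 35 and 25 at P21. In CPM the P8 samples, at 32.0, 27.8 and 23.3, were above every other sample. The mean was 27.7 ± 4.35 CPM at P8 against 11.0 ± 7.47 at P4 and 9.88 ± 0.80 at P14 (SD, n = 3).

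The slope of Hspb1 was 0.0096 (SE 0.067, edgeR adjusted p = 0.940) and no step was called, with the P4 to P8 estimate at 1.33 (adjusted p = 0.685) and the P8 to P14 estimate at -1.49 (adjusted p = 0.580). No samples overlapped at either step; that was so for 9.28% of all tested genes going up from P4 to P8 and 12.7% going down from P8 to P14. Hspb1 is also known from vessel cells, and endothelial and mural markers summed to 35.7 and 108 CPM at P4, 55.4 and 127 CPM at P8, and 33.8 and 58.8 CPM at P14, and their part in the Hspb1 course was not tested. Of 6 other heat shock genes tested, the chaperones Hspa8, Hsp90aa1 and Hsph1 rose with day, 0 fell and 3 were not called (12.1% of all tested genes rose and 14.1% fell), with Hsp90aa1 going from 754 CPM at P0 to 1273 CPM at P21 (edgeR adjusted p = 5.31e-04). Of 4 small heat shock genes tested, Hspb1 included, Hspb6 rose (slope 0.14, edgeR adjusted p = 0.00174), 0 fell and 3 were not called. Over any change between time points 2 of the 4 were called, Hspb6 and Cryab (edgeR adjusted p = 0.0124 and 0.0207), beside 19.3% of all tested genes.

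Ebf2 (ENSMUSG00000022053, chromosome 14, bases 67233292 to 67430918, plus strand) had its highest mean at P0 and its lowest at P14. At P21 it was higher again but below P0. It was at 336, 447 and 335 CPM at P0, at 99.8, 207 and 162 CPM at P4, and at 85.3, 68.0 and 72.4 CPM at P8. At P14 it had fallen to 39.3, 7.27 and 9.97 CPM, and at P21 it was at 173, 154 and 94.2 CPM. Samples did not overlap between any neighbouring time points. Over all tested genes, that was so downward for 6.04%, 8.31% and 12.7% at the first 3 steps and upward for 7.56% at the last.

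The fall from P8 to P14 was -1.99 (SE 0.48, edgeR adjusted p = 0.0346) and the rise from P14 to P21 was 2.89, or 7.41-fold (SE 0.49, adjusted p = 0.0139). At that last step only 9 genes, 0.063% of those tested, were called higher, beside 0.266% called lower, and of the 9 only Gm14033 had a larger estimate than Ebf2. The steps from P0 to P4 (-1.25, adjusted p = 0.199) and from P4 to P8 (-1.06, adjusted p = 0.372) were not called, but P21 was below P0 (-1.41, SE 0.46, adjusted p = 0.0367). That call was lost without P0 replicate 2 (0.0885) or without any one of the P21 libraries (0.0607 to 0.135). The slope over the whole course was -0.071 (SE 0.033, edgeR adjusted p = 0.131), whereas any change between time points had an adjusted p of 1.37e-04. The rise to P21 was not called without P14 replicate 2 (2.50, adjusted p = 0.0655), P14 replicate 3 (0.0913), P21 replicate 1 (0.0663) or P21 replicate 2 (0.0560), and the fall to P14 was not called without any one of the P8 libraries (0.0793 to 0.113) or without P14 replicate 2 (0.119) or 3 (0.179).

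Of the other Ebf genes, none was called higher from P14 to P21, and the difference from Ebf2 was not tested. Ebf1 fell with day from 943 ± 99.7 CPM at P0 to 343 ± 39.9 at P14 and 300 ± 17.2 at P21 (SD, n = 3; slope -0.077, edgeR adjusted p = 1.13e-05), and Ebf3 fell from 278 to 32.7 CPM (slope -0.14, adjusted p = 5.52e-05). Ebf4, with at most 58 counts in a library, was estimated at -3.68 from P8 to P14 and 2.25 from P14 to P21 (edgeR adjusted p = 0.584 and 1). Per length, Ebf2 was 29.5% ± 1.61 of the family at P0, 6.14% ± 4.98 at P14 and 36.3% ± 7.01 at P21. Between P14 and P21 oligodendrocyte markers went from 424 to 569 CPM in sum, the glial sum went from 7005 to 4412 CPM (Fabp7 from 1106 to 185 CPM, with 8 of 10 glial markers lower in mean and Slc1a2 and S100b higher), and interneuron markers went from 37.2 to 22.9 CPM. Their part in the Ebf2 course was not tested. An antisense gene, Gm10860, overlaps 6.12% of the Ebf2 exons but had 46 counts over all libraries, and the library kit kept no strand.

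**Figure D4:**
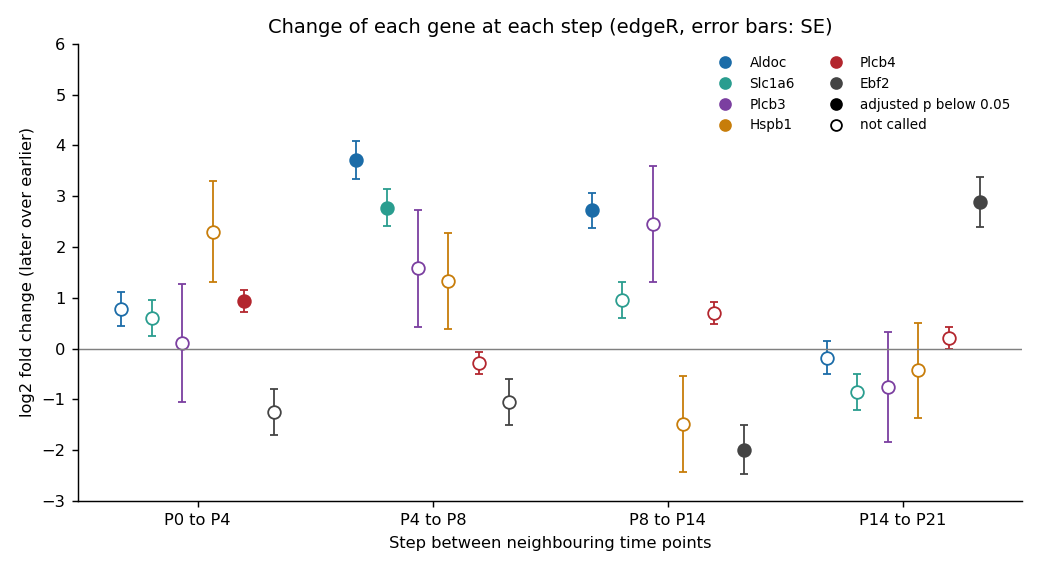
The log2 fold change of each gene at each step between neighbouring time points (edgeR, error bars are SE); filled points have an adjusted p below 0.05. Aldoc is called at 2 steps, Ebf2 at 2 in opposite directions, and Slc1a6 and Plcb4 at 1 each.

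Counted by step, 1 of 6 members was called higher from P0 to P4 and 0 lower, beside 1.74% and 0.231% of all tested genes. From P4 to P8 it was 2 higher and 0 lower, beside 0.882% and 0.252%. From P8 to P14 it was 1 higher and 1 lower, beside 1.29% and 1.38%. From P14 to P21 1 member, Ebf2, was higher and 0 lower, beside 0.063% and 0.266%. From P0 to P21, 3 were higher and 1 lower, beside 12.2% and 10.6% of all genes.

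To see the members beside other genes of the stripe pattern, further lists were examined. Of 6 other genes associated with zebrin-positive PCs, 3 rose with day, 2 fell and 1 (Sphk1) was not called, and their median slope was 0.032, beside 12.1% of all tested genes that rose, 14.1% that fell and a median of -0.0077. Gabbr2, a subunit of the GABA-B receptor, rose from 158 to 1354 CPM (slope 0.17, edgeR adjusted p = 2.63e-08), and the kinase gene Prkcd rose to 88.7 CPM at P21 from 28.5 CPM at P0, by way of 3.16 CPM at P4 (adjusted p = 0.0447). Ncs1, a calcium sensor, fell from 392 to 147 CPM (slope -0.075, adjusted p = 7.61e-05), and Ngfr, the p75 neurotrophin receptor, fell as well (slope -0.19, adjusted p = 0.0255).

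Map1a, a microtubule-associated protein listed as zebrin-negative, rose from 101 to 344 CPM (slope 0.079, SE 0.014, edgeR adjusted p = 3.61e-04). Of 8 genes that mark PC clusters in the embryo, before the stripes, Etv1 rose, Foxp2 and Pcdh10 fell and 5 were not called. Over all tested genes, 12.1% rose and 14.1% fell. Some of the 5 not called had few counts, down to 0 in some libraries. The transcription factor gene Foxp2 went from 743 CPM at P0 to 89.3 CPM at P14 and 114 CPM at P21 (slope -0.14, adjusted p = 3.14e-05). Epha4, a receptor for ephrins, was at 148, 215, 43.4, 85.9 and 74.7 CPM from P0 to P21 and was not called by slope (adjusted p = 0.0784). Epha4 was called over any change between time points (edgeR adjusted p = 0.00403). From P4 to P8 it was called lower (-2.31, edgeR adjusted p = 0.0107), as was Foxp2, beside 0.252% of all tested genes.

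**Figure D5:**
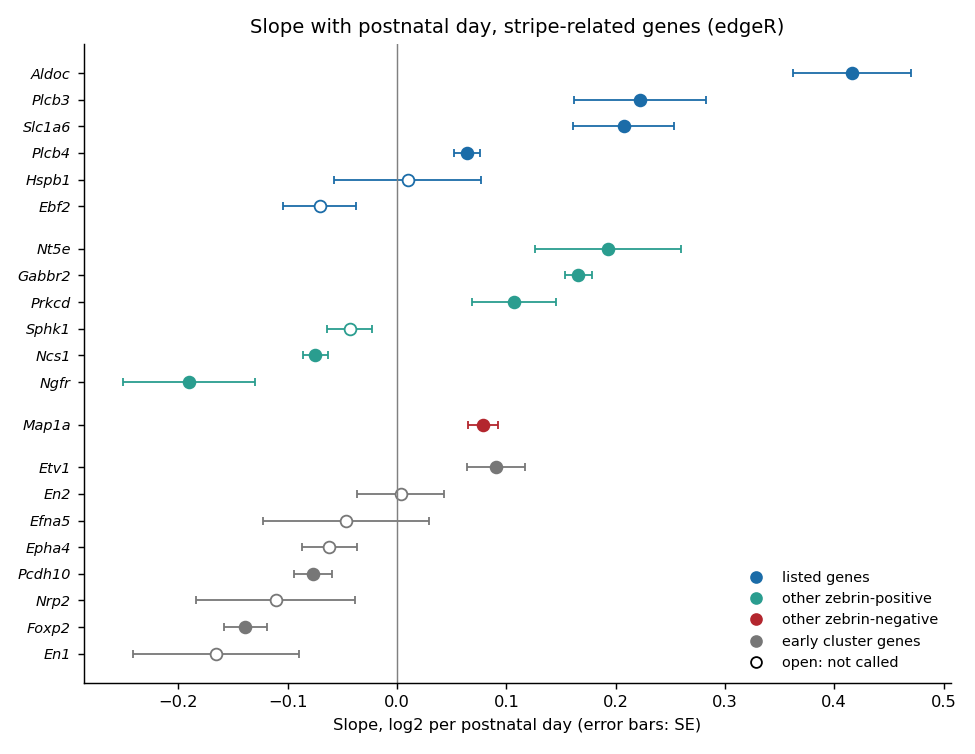
Slope with postnatal day (log2 per day, error bars are SE) of the 6 genes, other zebrin-positive genes, the zebrin-negative Map1a and genes of early PC clusters; open points were not called. Both zebrin classes hold rising genes, and Aldoc has the largest slope at 0.42.

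Members can also be compared among samples of the same age. At P14, replicate 1 was lowest for Aldoc and Plcb3 and highest for Slc1a6, Plcb4 and Ebf2. At P21, replicate 3 was lowest for Aldoc and Plcb3, highest for Slc1a6 and Plcb4, and lowest for Ebf2. Over the 15 pairs of members, the correlation of deviations from the time point mean ran from -0.28 (Aldoc and Plcb4) to 0.52 (Plcb3 and Hspb1), and 0 pairs passed an exact permutation of samples within time points, adjusted or at an unadjusted p under 0.05. The share of zebrin-positive somata in a library was not measured.

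Finally, the protein-coding genes with the most similar course were looked for by Pearson's r of log2 CPM over the 15 samples, among 10706 with a mean of at least 10 CPM at 1 time point. These values are given as a description, since all points share libraries and age. For Aldoc they were Washc2 (0.98), Rspo3 (0.98) and Nptx1 (0.98), of which Nptx1, a neuronal pentraxin, went from 8.60 CPM at P0 to 1041 CPM at P21. For Slc1a6 they were Ppp1r17 (0.97), a PC gene that went from 0.99 to 1575 CPM, Them6 (0.97) and Psd2 (0.96). For Plcb4 the 3 nearest included Ap2b1 (0.93), a subunit of the clathrin adaptor, and Dstyk (0.92).

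Plcb3 was nearest to Lcp1 (0.94), Fam107a (0.93) and Bcar1 (0.92), Hspb1 to Zbtb8os (0.91), Tmem151a (0.91) and Nqo2 (0.91), and Ebf2 to Fance (0.88), Cad (0.87) and Ina (0.85). None of the 3 nearest to Ebf2 was called higher from P14 to P21, and Ina, an intermediate filament of neurons, was at 1086 CPM at P0, 716 at P14 and 973 at P21. Among the members themselves, the closest pair was Aldoc and Slc1a6 (r = 0.94 over 15 samples), and Ebf2 correlated negatively with all 5 others, from -0.72 with Slc1a6 to -0.42 with Hspb1.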

How the data were processed

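Laser-captured PC RNA was amplified with the SMARTer kit and sequenced as paired ends. Per the labels and the study's methods, the authors trimmed reads (cutadapt 1.2.1 among other tools), aligned them to GRCm38/mm10 with GSNAP 2012-07-20 and deposited raw counts per gene, made with HTSeq 0.5.3p9 in intersection-strict mode from uniquely mapped reads. Tally rows for reads on no feature (16.7% to 29.8%) or on several (1.16% to 1.57%) stayed out. The annotation release behind the counts is not given in the sources used here; names, positions and exon lengths came from GENCODE M21.

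Counts were tested with edgeR 4.0.16 (R 4.3.3; TMM, filterByExpr by time point, quasi-likelihood F tests with the day as a number or as a factor, all 15 samples, Benjamini-Hochberg adjustment over 14293 genes, threshold 0.05). DESeq2 1.42.0 and limma-voom 3.58.1 were alternatives, and each library was left out in turn. CPM and RPKM were computed from these counts. Ratios within libraries, with 0.5 added to each count, were compared between P0 with P4 (n = 6) and P14 with P21 (n = 6) by exact permutation over 924 splits, and other values in Python 3.11.15 with scipy 1.17.1. The fits were also run on simulated data with planted linear slopes, which did not cover courses that rise and fall. The spread between replicates corresponded to a biological coefficient of variation of 0.705, and no pair of replicates agreed within counting noise. Named genes were the 6 members, up to 4 of each further list by mean CPM with the others counted, and the 3 genes of most similar course; Sphk1, Gna11, Gm14033, Gm10860, S100b and Atoh1 were named after their values were seen. Members and lists were chosen with earlier results of these data known. Samples of the same replicate number were not tied together: the correlation of their deviations from time point means was -0.0316 to 0.0472. Some genes are not reported here.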

Additional observations from a re-analysis of the deposited data

Results flagged for a closer look

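The log2 ratio of Plcb4 to Calb1 counts in the 6 samples of P14 and P21 had a highest value, P21 replicate 3 at -2.274, that stood away from the next at -2.888. That gap was 0.631 of the range of the 6 samples. In all 12 groups of 6 samples were examined in this way, and chance marks about 1 in 20. Without 1 sample at a time, the difference between the late and early samples stayed between -1.19 and -0.93.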

How the results depend on the processing

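Another scaling between libraries (DESeq2 size factors) moved no call of the 6 genes. Tested with limma-voom, calls were gained for the step from P8 to P14 of Plcb3 (2.41) and Slc1a6 (0.94), for Plcb3 from P0 to P21 (4.25), for Hspb1 over any change (adjusted p = 0.0351), and for Ebf2 over the slope (-0.16) and from P0 to P4 (-1.23), while Ebf2 from P8 to P14 was not called (-2.37) and Plcb3 from P0 to P4 changed sign (-1.54). DESeq2 gained Plcb4 from P8 to P14 (0.70), Plcb3 from P0 to P21 (3.35, likewise 3.35 with no filter on low counts) and Hspb1 over any change (0.0143). On log2 of the day plus 1, the Ebf2 slope was called (-0.48). Without P0, the slopes of Plcb3 (0.22) and Slc1a6 (0.14) were not called and that of Hspb1 was -0.079. Ranked against the day, Slc1a6 to Calb1 was not called (rho 0.513). Deviations of Aldoc and Slc1a6 turned to -0.0286 by rank, and without P0 those of Aldoc and Hspb1 turned to 0.450 and of Plcb4 and Hspb1 to -0.116. The cause of these changes was not tested.

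With the replicate number as a block, which pairs nothing here by the check of deviations, Plcb4 from P0 to P4 (0.93, adjusted p = 0.0659) and Plcb3 over any change (0.0717) were not called, Plcb3 from P0 to P4 was -0.13, genes lower from P4 to P8 went from 36 to 22, and no other call of the 6 genes changed.

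Leaving out 1 library at a time, changes ranged as follows. Plcb3 gave adjusted p values of 1.83e-04 to 0.102 over any change, and log2 fold changes of -4.82 to 0.83 from P0 to P4, 0.98 to 6.48 from P4 to P8 and 2.78 to 4.10 from P0 to P21. Ebf2 gave -1.51 to -1.05 from P0 to P4, -3.12 to -1.61 from P8 to P14, 2.50 to 4.02 from P14 to P21 and -1.59 to -1.19 from P0 to P21. Slc1a6 gave -0.079 to 0.92 from P0 to P4 and 0.73 to 1.11 from P8 to P14, Plcb4 0.75 to 1.10 from P0 to P4, Aldoc -0.50 to 0.036 from P14 to P21, and the Hspb1 slope ran from -0.021 to 0.041.

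Counts of genes called at a step depended on the tool. From P0 to P4, edgeR called 248 higher and 33 lower, DESeq2 564 and 221, and limma-voom 87 lower. From P4 to P8 edgeR called 126 and 36, DESeq2 323 and 173, and limma-voom 202 and 108. From P8 to P14 edgeR called 185 and 197, DESeq2 398 and 446, and limma-voom 386 higher. From P14 to P21 edgeR called 9 and 38, DESeq2 49 and 124, limma-voom 42 and 11, and edgeR with no filter 14 higher. Plcb3 had 1 to 64 counts in a library in the first week and Hspb1 0 to 148, fewer than the other 4, and the spread of Plcb3 at P4 (64, 1 and 1 counts) was between replicates. Leaving out single libraries for the summed Plcb4 to Plcb3 ratio, and Fabp7 for the glial sum, was added after seeing the data.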
